A study of Mus musculus with 12 samples.

Results

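The proteasome genes that are read in every cell type were examined in B16F10 cells, a mouse melanoma line, as RNA levels. Members were all genes whose symbol is Psma, Psmb, Psmc, Psmd, Psme, Psmf or Psmg followed by a number, less the interferon-inducible Psmb8, Psmb9, Psmb10, Psme1 and Psme2, with at least 1 FPKM in at least 3 libraries. FPKM is a read level scaled to transcript length and library size. Of 43 such symbols 41 passed, among 27503 genes in the table, and no member was chosen by how it changed. Psma8, the germ cell form of an outer-ring subunit, and Psmb11, the thymus form of a catalytic subunit, did not pass, at no more than 0.0612 and 0.00469 FPKM.

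The 4 groups held 3 libraries each. They were wild-type control, wild-type IFNα, C435A control and C435A IFNα, where wild type and C435A are the forms of IRF7 carried by the cells, IFNα is interferon alpha, and C435A puts alanine at a cysteine of IRF7, a transcription factor that switches on interferon genes. The sources used here do not give the dose or duration of IFNα, how the C435A line was made, or whether it is a clone. The design compares the mutant with the wild type, each with and without IFNα, so each member was compared along both axes and for their interaction. Since no label says that replicates came from separate cultures, the p-values rest on a spread that may be technical.

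The proteasome is the cell's main machine for destroying proteins tagged with ubiquitin. Its core is a barrel of stacked rings, outer alpha rings that gate the entry and inner beta rings that hold the cutting sites, and a regulatory cap with an ATPase ring, a base and a lid recognises, unfolds and feeds in the tagged protein. In cells exposed to interferons the catalytic beta subunits can be exchanged for inducible counterparts, which changes the peptides offered on MHC class I. The transcription factor Nfe2l1 is a known regulator of proteasome genes, though not necessarily of every gene studied here.

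Library totals ran from 60511573 to 75927461 counts, and the lowest count of any member in any library was 522, for Psme4. Melanocyte markers were high throughout, at a summed 2577 to 3963 FPKM over 7 genes, among them Pmel and Mlana. Transcripts of lung epithelium were present in 8 libraries (wild-type control 1, all C435A control, all wild-type IFNα and C435A IFNα 3), at a summed 38.1 to 59.6 TMM-scaled CPM over 7 marker genes, and at no more than 0.156 CPM in the other 4, where Scgb1a1 was at most 0.0645 FPKM. Summed leukocyte markers were at 24.5 to 59.9 FPKM and fibroblast and endothelial markers at 3.08 to 9.03 FPKM, and the T cell gene Cd3e reached no more than 0.0257 FPKM. Most of these sums came from single genes, Lyz2 (22.5 to 56.8 FPKM) and Col1a1 (2.97 to 7.52 FPKM). The leukocyte gene Ptprc was at 0.133 to 0.259 FPKM, and Pecam1 and Cdh5 reached no more than 0.564 and 0.460 FPKM. C435A IFNα 3 stood apart from its replicates: the SD of the log2 ratio over the 41 members was 0.351 and 0.347 to replicates 1 and 2, against 0.128 between those. Wild-type replicates were spread too, at 0.339 between wild-type control 1 and 3. Wild-type IFNα 1 was at 0.259 and 0.239 to its replicates 2 and 3. The files hold no reads, so the C435A change itself was not checked in any library. In bulk RNA, fewer cells with a transcript and less of it per cell cannot be told apart.

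Members spanned a wide range of levels per length, from 608 FPKM for Psmb3 to 1.09 FPKM for Psme4 as means over the 12 libraries. Together they made up 1.13% to 1.39% of all FPKM in a library. The subunits of the beta rings were the highest group. Among the structural beta subunits Psmb3 (608 FPKM) was highest and Psmb2 (156 FPKM) lowest. Among the catalytic ones Psmb5, which holds the chymotrypsin-like site, was at 508 FPKM, Psmb6, the caspase-like one, at 316 FPKM, and Psmb7, the trypsin-like one, at 236 FPKM. In the alpha ring, which forms the gate, levels ran from 67.5 FPKM for Psma3 to 343 FPKM for Psma7. In the ATPase ring, which unfolds the substrate, they ran from 40.2 FPKM for Psmc6 to 337 FPKM for Psmc5. The subunits of a ring stand in equal number in the finished particle, while their RNA levels per length differed.

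The cap's other parts were lower and more uneven. In the base, the ubiquitin receptor Psmd4 was at 139.6 FPKM and the scaffold Psmd1 at 9.73 FPKM. In the lid, Psmd8 was at 375.5 FPKM and Psmd11 at 14.3 FPKM, with Psmd14, the enzyme that removes ubiquitin chains from the substrate, at 26.4 FPKM. The helpers that build the particle without staying in it were low as well. Among the chaperones of the base Psmd10 was highest (31.0 FPKM) and Psmd5 lowest (12.1 FPKM), and among those of the rings Psmg1 was highest (61.8 FPKM) and Psmg2 lowest (11.3 FPKM). Psme3, which caps the core of nuclear proteasomes, was at 54.1 FPKM, against 1.09 FPKM for Psme4, the large nuclear activator. Psmf1, which binds the core and was named as its inhibitor, was at 6.65 FPKM. Group means of neighbouring members often overlapped in their SD, as those of Psma6 and Psmb7 did in the wild-type controls (237 ± 28.9 and 227 ± 27.9 FPKM, SD, n = 3).

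**Figure D1:**
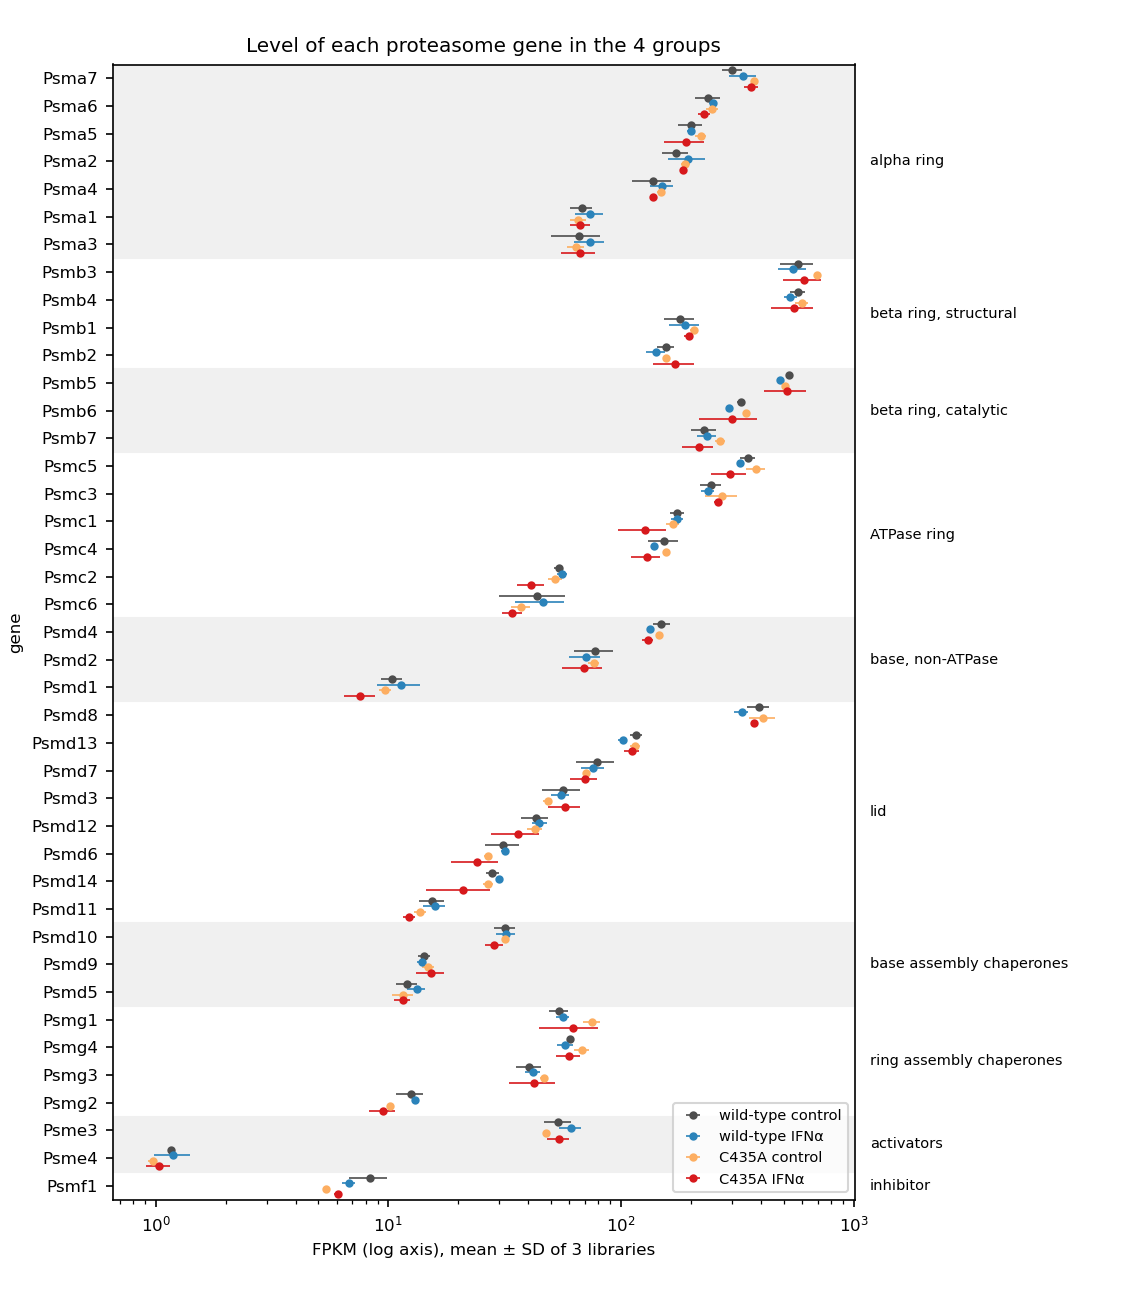
Mean FPKM (log axis) ± SD of 3 libraries for each of the 41 genes in the 4 groups, ordered by part of the proteasome. The 4 groups lie close together for nearly every gene, while genes differ from 1.09 FPKM (Psme4) to 608 FPKM (Psmb3) in their mean over all libraries.

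Some of these levels depend on how reads were shared with copies of the gene elsewhere in the genome. Of the 41 members, 9 had a copy outside their own locus with at least 95% identity over at least 300 bases of transcript (Psma2, Psma3, Psma4, Psma5, Psmb3, Psmb5, Psmc1, Psmd2 and Psmd11). Psma3, an alpha-ring subunit on chromosome 12 (chr12:71021395-71043121 in the deposited table), has a processed pseudogene, Gm13835, on chromosome 6 (chr6:31118914-31119598). The 2 were identical over 685 aligned bases. Psmb3 (chr11:97594225-97604326) has AC114990.1 on chromosome 16 (chr16:21715256-21715866), 97.1% identical over 618 bases. A stretch of 90 coding bases of each gene and its copy, from the GENCODE transcripts, shows what a read can and cannot tell apart, with capitals at bases where gene and copy differ.
Psma3: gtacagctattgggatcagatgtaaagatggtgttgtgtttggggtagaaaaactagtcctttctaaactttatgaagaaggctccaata
Gm13835: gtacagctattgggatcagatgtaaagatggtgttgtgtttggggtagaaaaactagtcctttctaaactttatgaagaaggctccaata
Psmb3: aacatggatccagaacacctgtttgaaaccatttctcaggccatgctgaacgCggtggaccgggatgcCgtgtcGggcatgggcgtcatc
AC114990.1: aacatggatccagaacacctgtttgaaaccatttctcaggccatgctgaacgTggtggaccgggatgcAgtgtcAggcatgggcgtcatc
In this window Gm13835 differed from Psma3 at 0 bases and AC114990.1 from Psmb3 at 3. Gm13835 was listed at 95.0 to 165 FPKM, and the copies of Psma3 took 25.4% to 27.8% of the summed counts of gene and copies in 11 libraries and 17.6% in C435A IFNα 3. The copies of Psmb3 took 3.95% to 4.76% in 11 libraries and 11.2% in C435A IFNα 3. The low level of Psma3 within the alpha ring is therefore uncertain. Adding the counts of the copies to those of the gene changed no call below. For 4 members a gene above 1 FPKM lies on the opposite strand (Psma3, Psmb7, Psmc3 and Psmd13). The sources do not say whether counting used strand.

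Members varied little from library to library. The highest library was 1.25 (Psma6) to 2.26 (Psmd14) times the lowest in FPKM, and the Spearman correlation of the 41 levels between 2 libraries was 0.967 to 0.998, a description of levels that share transcript length and scaling. The median within-group SD of log2 CPM was 0.163 over members and 0.280 over the 17590 genes tested. Those genes were not filtered by FPKM, and the sets were not matched for level, here or for the intervals below. Over 6318 genes with higher counts, the SD of the log2 ratio between replicates was 0.224 to 0.427. Over members it was 0.0770 to 0.351, and lower in every pair. Psmc6 had the widest spread, with 57.0, 44.0 and 29.8 FPKM in wild-type control and 33.6, 50.3 and 54.3 FPKM in wild-type IFNα. Its C435A libraries were closer together, at 33.2, 39.4 and 38.9 FPKM in control and 36.1, 30.2 and 35.8 FPKM with IFNα, and all groups overlapped. Within wild-type control the alpha ring was high in replicate 1 and low in replicate 3, at median deviations from the group mean of 0.23 and −0.27 (log2).

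**Figure D2:**
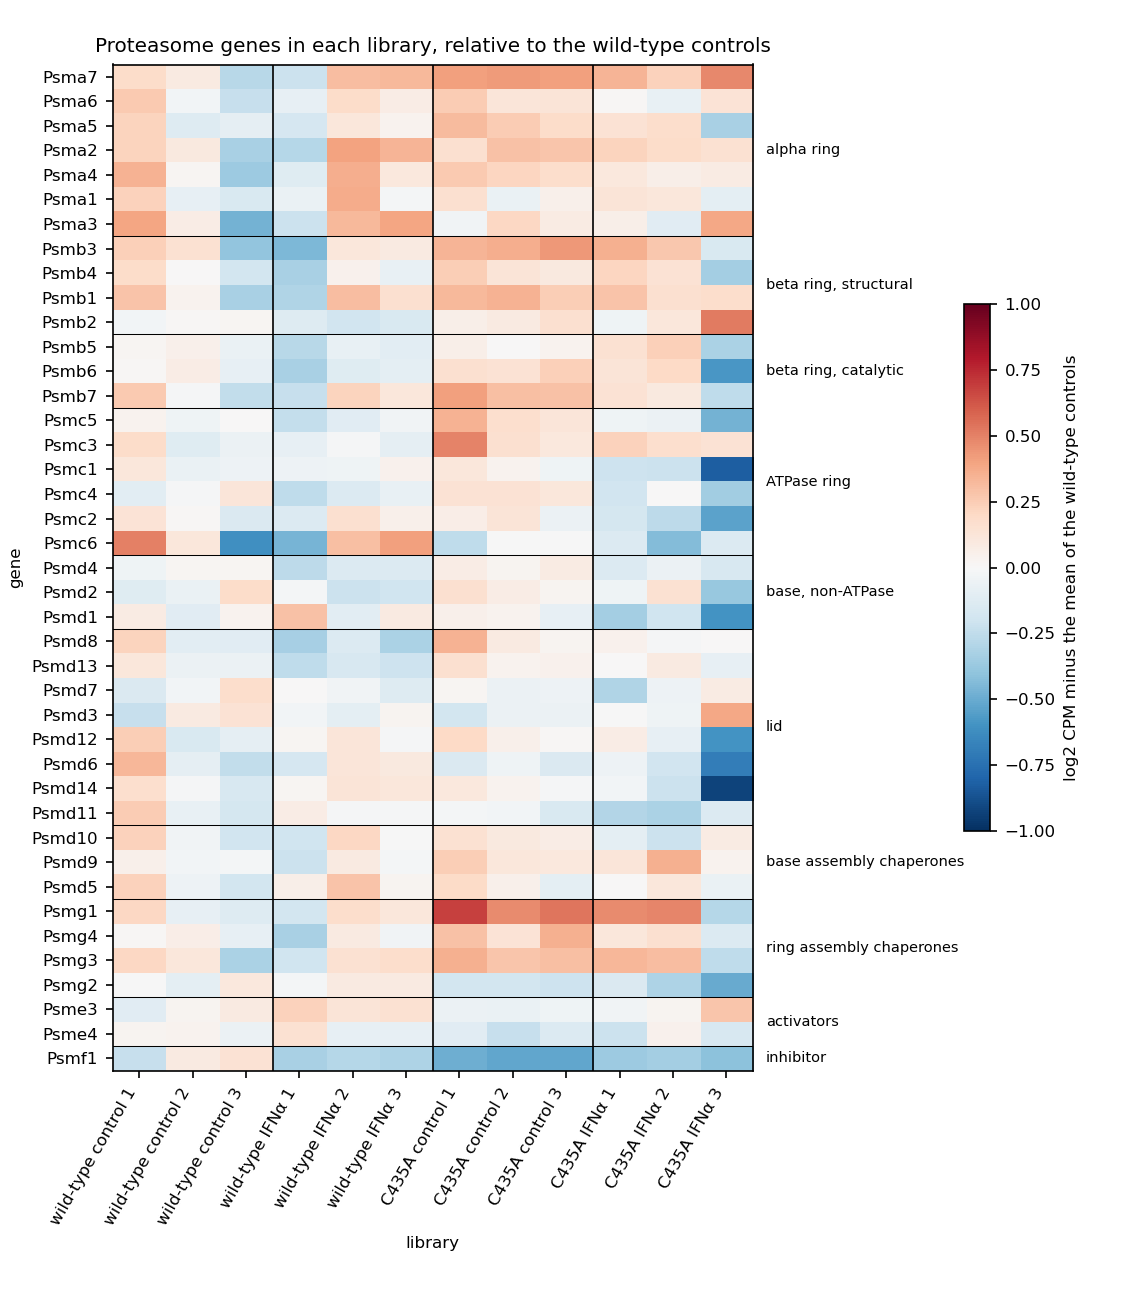
Level of each gene in each of the 12 libraries as log2 CPM minus the mean of the wild-type controls (colour, from −1 to 1), grouped by part of the proteasome. C435A IFNα 3 is below its replicates in the median of the catalytic beta subunits (−0.32), the ATPase ring (−0.41), the base (−0.38) and the ring chaperones (−0.27), and Psmf1 is below the wild-type mean in all C435A and wild-type IFNα libraries.

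IFNα in wild-type cells moved no proteasome gene past the test, and no interval reached a 2-fold change. Few genes passed at all: of 17590 tested, edgeR called 1 higher and 3 lower at an adjusted p under 0.05. The 5 interferon-inducible proteasome genes had a median log2 fold change of −0.37, with 0 above 0. Whether the treatment acted on these cells was not tested. By edgeR's quasi-likelihood test 0 of 41 members passed at an adjusted p under 0.05 (0.0227% of all genes tested), 0 were higher and 1 lower at an unadjusted p under 0.05 (2.68% and 2.76% of all genes), and DESeq2 and limma called 0 (0.37% and 0.0297% of all genes). The median log2 fold change was 0.00061 over members and 0.016 over all genes, and 22 of 41 were above 0 (52.9% of all genes). With a term for lung transcripts the member median was −0.0015. All 41 had a 95% interval within 2-fold (65.8% of all genes), and 39 within 1.5-fold (43.3%). The member with the smallest p was Psmf1, on chromosome 2 (chr2:151557732-151586106). It was at 6.73, 8.50 and 9.84 FPKM in wild-type control and at 7.26, 6.56 and 6.46 FPKM with IFNα. Control 1 lay among the IFNα libraries, and controls 2 and 3 above them. The log2 fold change was −0.32 ± 0.107 (SE, n = 3 per group, edgeR adjusted p = 0.716). Lung transcripts divided the wild-type libraries in the same way, present in control 1 and all IFNα libraries and not in controls 2 and 3. Beyond the term for them, their part in this comparison was not tested for any member. The activators overlapped between the groups, with Psme3 at 47.2, 52.5 and 61.2 FPKM in control and 68.6, 56.3 and 57.6 FPKM with IFNα, and Psme4 at 1.13, 1.16 and 1.21 FPKM in control and 1.43, 1.07 and 1.07 FPKM with IFNα.

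The FPKM of 0 members was higher and of 5 members lower without overlap in wild-type IFNα (4.77% and 5.08% of all genes), among them catalytic subunits. Psmb5 was at 514, 530 and 544 FPKM in control and at 479, 487 and 476 FPKM with IFNα. Psmb6 was at 314, 333 and 333 FPKM in control and at 287, 291 and 296 FPKM with IFNα. Both were slightly lower with IFNα in every library, by −0.15 ± 0.133 and −0.18 ± 0.164 on the log2 scale (edgeR adjusted p = 0.9997 for both). Psmb7, the third catalytic subunit, overlapped, at 259, 217 and 206 FPKM in control and 212, 256 and 238 FPKM with IFNα. The other 3 belong to the cap. Psmd8, a lid subunit, was at 436, 350 and 389 FPKM in control and at 341, 344 and 304 FPKM with IFNα. Psmd13, another lid subunit, was at 120, 108 and 121 FPKM in control and at 107, 101 and 97.8 FPKM with IFNα. Psmd4, the ubiquitin receptor, was at 139, 146 and 163 FPKM in control and at 137, 131 and 131 FPKM with IFNα. The gaps between the closest libraries of these genes were narrow, and the log2 fold changes of −0.26, −0.21 and −0.18 had edgeR adjusted p-values of 0.923, 0.923 and 0.963. The base scaffold Psmd2 overlapped, at 67.8, 70.8 and 94.4 FPKM in control and 83.2, 64.0 and 64.8 FPKM with IFNα.

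In C435A cells IFNα went with lower values for most members, but none passed. By edgeR 0 of 41 had an adjusted p under 0.05 (0.00569% of all genes), 0 were higher and 6 lower at an unadjusted p under 0.05 (5.7% and 4.62% of all genes), and DESeq2 and limma called 0 (0.842% and 0.0297% of all genes). The median was −0.15 over members and −0.0072 over all genes, with 9 of 41 above 0 (49.2% of all genes). The FPKM of 3 members was higher and of 8 lower without overlap (9.75% and 8.29%). All 41 intervals lay within 2-fold (63.7% of all genes) and 31 within 1.5-fold (37.3%). Without C435A IFNα 3 the median was −0.085, with 0 members higher and 4 lower at an unadjusted p under 0.05 (4.16% and 5% of all genes). With a term for lung transcripts the median was −0.060, and with the length trend removed it was −0.088. Markers of other cell types mostly had lower values with IFNα. Of the lung markers 0 of 7 were above 0, at a median of −1.02. It was 0 of 4 leukocyte markers tested, at −0.57, and 1 of 5 fibroblast and endothelial markers, at −0.34. By library, lung transcripts were at 0.0424, 0 and 59.6 CPM in C435A IFNα and at 44.6, 56.3 and 46.1 CPM in C435A control. The member medians relative to the wild-type controls were 0.0059, 0.044 and −0.15 in C435A IFNα and 0.16, 0.092 and 0.073 in C435A control. Beyond the term for lung transcripts, the part of other cell types in the members' values was not tested.

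Of the 6, 4 were subunits of the ATPase ring, which turns ATP into unfolding of the substrate. Psmc5 was at 419, 367 and 353 FPKM in C435A control and at 320, 325 and 235 FPKM with IFNα. Psmc1 was at 177, 167 and 156 FPKM in control and at 142, 145 and 92.2 FPKM with IFNα. Psmc2 was at 53.1, 55.3 and 48.1 FPKM in control and at 45.2, 43.7 and 34.9 FPKM with IFNα. In all of these every IFNα library lay below every control, and C435A IFNα 3 lay far below its replicates. The log2 fold changes were −0.39 ± 0.127 for Psmc5, −0.42 ± 0.144 for Psmc1 and −0.36 ± 0.126 for Psmc2 (edgeR adjusted p = 0.368, 0.374 and 0.381), and −0.26, −0.25 and −0.26 without C435A IFNα 3. Psmc4, the remaining ATPase of the 4, had −0.30 ± 0.113 (edgeR adjusted p = 0.415). The ATPase ring as a group had a median of −0.33 over 6 genes, with 0 above 0.

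The remaining members of the 6 belong to the base and the lid. Psmd1, the base scaffold that carries the ubiquitin receptor Adrm1, was at 10.1, 9.91 and 9.02 FPKM in C435A control and at 7.70, 8.69 and 6.38 FPKM with IFNα. The groups did not overlap, at −0.37 ± 0.128 (edgeR adjusted p = 0.378). Psmd14, the lid's deubiquitinase, was at 28.3, 26.7 and 25.6 FPKM in control and at 25.8, 23.2 and 13.7 FPKM with IFNα. Its groups overlapped through replicate 1, replicate 2 lay below the controls, and replicate 3 far below them. The log2 fold change was −0.39 ± 0.175 (edgeR adjusted p = 0.477), and −0.16 ± 0.116 without C435A IFNα 3. Psmd2, the base scaffold that docks ubiquitin shuttles, overlapped, at 80.6, 75.5 and 72.6 FPKM in control and 70.3, 82.4 and 55.4 FPKM with IFNα. Psmd4 was at 148, 142 and 146 FPKM in control and at 128, 138 and 125 FPKM with IFNα, with no overlap, at −0.18 ± 0.0932 (edgeR adjusted p = 0.527). In C435A IFNα the activator Psme3 was at 48.9, 52.4 and 60.4 FPKM and Psme4 at 0.946, 1.16 and 0.976 FPKM.

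The alpha ring had a median of −0.063 over 7 genes in the same comparison, and −0.12 without C435A IFNα 3. Catalytic subunits were split by the library that stood apart. Psmb5 was at 517, 496 and 502 FPKM in C435A control and at 553, 605 and 397 FPKM with IFNα. Psmb6 was at 343, 337 and 357 FPKM in control and at 336, 363 and 204 FPKM with IFNα. In both genes C435A IFNα 3 was the lowest of all 12 libraries while replicate 2 lay above the controls. Replicate 1 lay above them for Psmb5 and just below them for Psmb6. Psmb7 was at 283, 261 and 256 FPKM in control and at 235, 234 and 178 FPKM with IFNα, with no overlap, at −0.33 ± 0.155 (edgeR adjusted p = 0.484), and −0.22 without C435A IFNα 3.

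**Figure D3:**
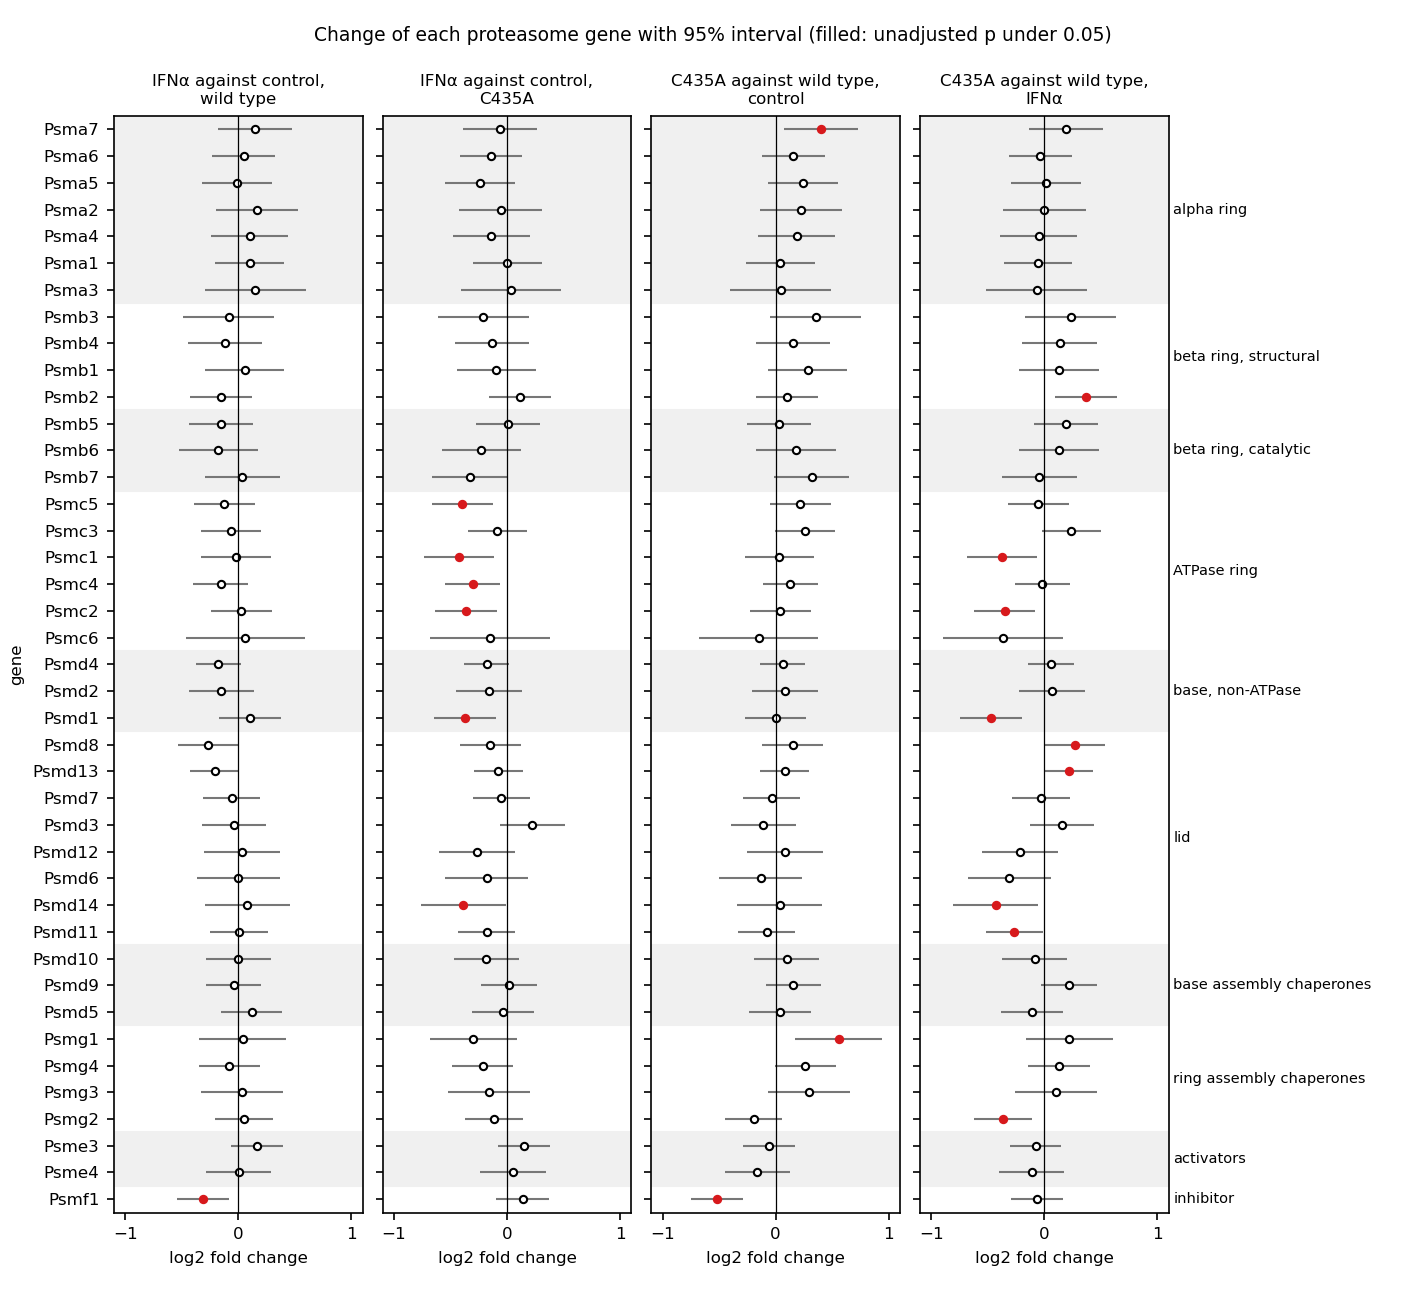
log2 fold change (point) and 95% interval (bar) of each gene from edgeR in 4 comparisons, filled where the unadjusted p was under 0.05. With IFNα 1 gene is filled in the wild type and 6 in C435A, against 3 and 9 for C435A against wild type in control and with IFNα, and no gene passed after adjustment.

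Without IFNα, C435A cells differed from the wild type most in the inhibitor Psmf1 and the ring chaperone Psmg1, again with 0 of 41 passing by edgeR (0.165% of all genes). At an unadjusted p under 0.05, 2 members were higher and 1 lower (6.07% and 4.63% of all genes). DESeq2 called 1 (1.37% of all genes), Psmf1, and limma called 0 (0.347%). FPKM did not overlap for 6 higher and 4 lower members (8.65% and 12.7%). The median was 0.082 over members and 0.0049 over all genes, with 31 of 41 above 0 (50.6% of all genes), but with library totals as scaling these were −0.011 over members, −0.091 over all genes and 20 of 41 above 0. The member median was 0.17 when wild-type control 1 was left out, 0.036 when wild-type control 3 was, and 0.033 with the length trend removed. With a term for lung transcripts the median was 0.10 over members and 0.021 over all genes. Beyond this term, the part of lung transcripts in the values of Psmg1 and the other members below was not tested. All 41 intervals lay within 2-fold (63.3% of all genes) and 32 within 1.5-fold (37.7%).

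Psmf1 was at 6.73, 8.50 and 9.84 FPKM in wild-type control and at 5.54, 5.39 and 5.32 FPKM in C435A control. Every C435A control lay below every wild-type control, and the C435A libraries were close together. The log2 fold change was −0.52 ± 0.108, with an edgeR adjusted p of 0.096 and a DESeq2 adjusted p of 0.0012. Without wild-type control 1 it was −0.63 with an edgeR adjusted p of 0.0247, which passed. With a term for lung transcripts, which were present in all C435A controls and in wild-type control 1 alone of the wild-type controls, it was −0.38 with an edgeR adjusted p of 0.521. The part of those transcripts in the difference was not tested beyond this term.

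Psmg1, a chaperone that helps assemble the alpha ring, was at 59.8, 49.5 and 53.5 FPKM in wild-type control and at 81.7, 70.1 and 72.6 FPKM in C435A control. The groups did not overlap, at 0.56 ± 0.18 (edgeR adjusted p = 0.312). Its partner Psmg2 went the other way, at 11.8, 11.2 and 14.4 FPKM in wild type and 10.2, 10.2 and 9.93 FPKM in C435A, without overlap, at −0.19 ± 0.119 (edgeR adjusted p = 0.581). Psmg3 and Psmg4, the other pair of ring chaperones, had values of 0.29 and 0.26, with no overlap in FPKM. Psma7, the highest alpha subunit, was at 326, 309 and 268 FPKM in wild type and at 375, 377 and 369 FPKM in C435A. All C435A libraries were higher, at 0.40 ± 0.154 (edgeR adjusted p = 0.381). Psmc3, an ATPase, was at 264, 216 and 252 FPKM in wild type and at 322, 254 and 243 FPKM in C435A, with overlap, at 0.26 ± 0.123 (edgeR adjusted p = 0.468) and 0.13 without C435A control 1.

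The alpha and beta rings had mostly positive values in this comparison, none past the test: 7 of 7 alpha, 4 of 4 structural beta and 3 of 3 catalytic beta genes were above 0, at medians of 0.19, 0.22 and 0.18, but 5, 4 and 2 of them with library totals as scaling. The lid had 4 of 8 above 0, at a median of 0.0012. The 2 activators were below 0. Psme3 was at 47.2, 52.5 and 61.2 FPKM in wild type and at 48.1, 47.5 and 47.9 FPKM in C435A, with overlap. Psme4 was at 1.13, 1.16 and 1.21 FPKM in wild type and at 1.01, 0.928 and 0.980 FPKM in C435A, without overlap, at −0.16 ± 0.134 (edgeR adjusted p = 0.700). Psmd14 overlapped, at 30.0, 26.8 and 27.0 FPKM in wild-type control and 28.3, 26.7 and 25.6 FPKM in C435A control.

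With IFNα in both lines, 0 of 41 members passed by edgeR (0.597% of all genes), 3 were higher and 6 lower at an unadjusted p under 0.05 (7.56% and 6.15% of all genes), DESeq2 called 1 (3.55% of all genes), Psmd1, and limma called 0 (0.555%). FPKM did not overlap for 1 higher and 8 lower members (6.47% and 12.1%). The median was −0.028 over members and −0.014 over all genes, with 19 of 41 above 0 (48.5%), and 0.019 over members without C435A IFNα 3, where 6 were higher and 3 lower at an unadjusted p under 0.05 (6.72% and 6.13% of all genes). All 41 intervals lay within 2-fold (62.7% of all genes) and 31 within 1.5-fold (35%). Lung transcripts were present in all wild-type IFNα libraries and in C435A IFNα 3 alone of its group. With a term for them the member median was −0.0027. Beyond this term, their part in the values of Psmd1 and the other members below was not tested.

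Psmd1 (chr1:85992109-86066873) was at 13.9, 9.31 and 10.7 FPKM in wild-type IFNα and at 7.70, 8.69 and 6.38 FPKM in C435A IFNα. All C435A libraries were lower, and wild-type IFNα 1 was well above its replicates. The log2 fold change was −0.47 ± 0.128, with an edgeR adjusted p of 0.115 and a DESeq2 adjusted p of 0.0183. It was −0.37 ± 0.126 without C435A IFNα 3, and −0.36 without wild-type IFNα 1. Psmg2 was at 13.4, 12.8 and 12.8 FPKM in wild type and at 10.6, 9.69 and 8.17 FPKM in C435A, lower in every library, at −0.36 ± 0.119 (edgeR adjusted p = 0.192). Psmc2 was at 54.2, 58.7 and 54.4 FPKM in wild type and at 45.2, 43.7 and 34.9 FPKM in C435A, also lower in every library, at −0.35 ± 0.126 (edgeR adjusted p = 0.230). The value of Psmc2 was −0.25 ± 0.122 without C435A IFNα 3.

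Psmc1, Psmd14 and Psmd11 were the other lower members at an unadjusted p under 0.05, at −0.37, −0.43 and −0.26. Psmd14 was at 31.0, 29.5 and 29.3 FPKM in wild-type IFNα and at 25.8, 23.2 and 13.7 FPKM in C435A IFNα, and its value was −0.21 ± 0.116 without C435A IFNα 3. Psmc1 was at 185, 163 and 174 FPKM in wild type and at 142, 145 and 92.2 FPKM in C435A, and its value was −0.19 ± 0.103 without that library. The size of both was thus set in part by 1 library, although its replicates lay below the wild type too. Psmb2, a structural beta subunit, was among the 3 higher ones, at 157, 132 and 136 FPKM in wild type and 142, 162 and 209 FPKM in C435A. Its groups overlapped, and C435A IFNα 3 was the highest library, opposite to its place for the ATPases. Its value was 0.37 ± 0.128 (edgeR adjusted p = 0.207), and 0.19 ± 0.0959 without C435A IFNα 3. The lid subunits Psmd8 and Psmd13 were the other higher ones, at 0.27 and 0.22.

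**Figure D4:**
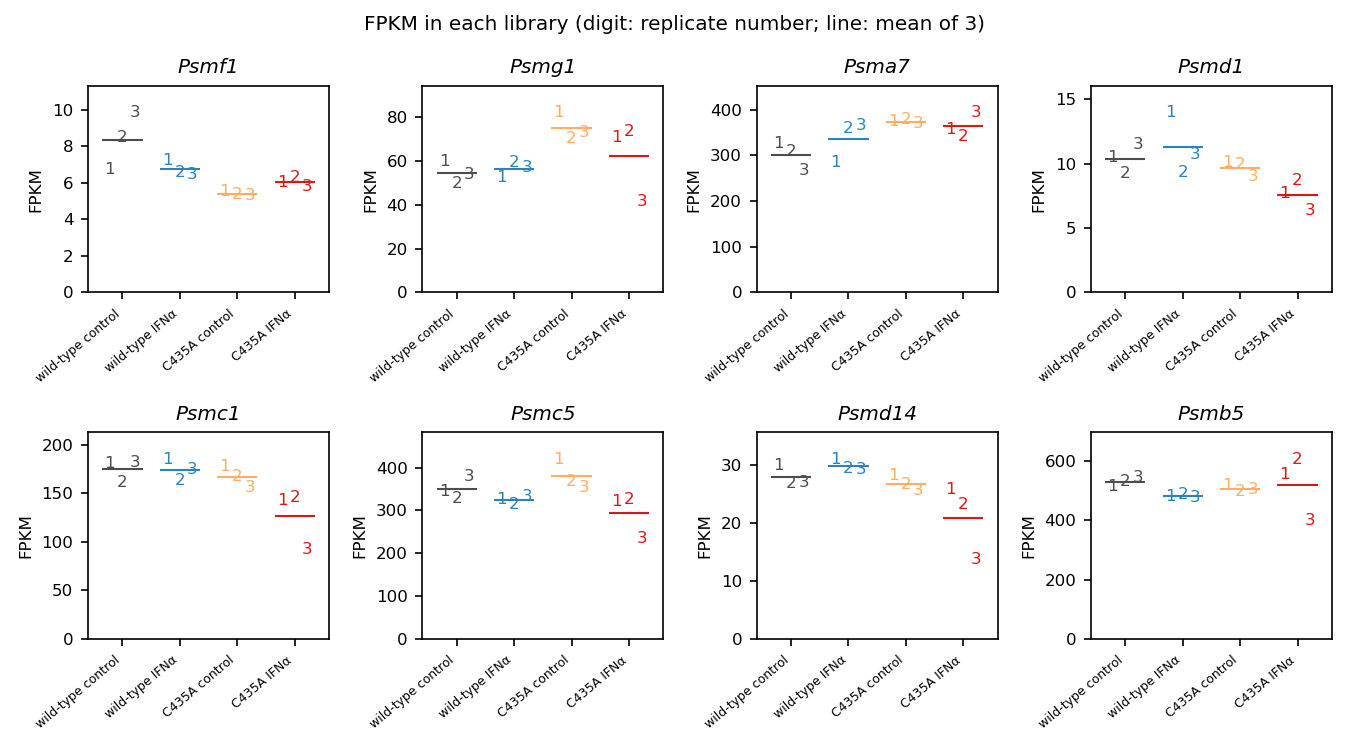
FPKM of 8 genes in every library (digit: replicate number; line: mean of 3; the FPKM axis starts at 0). Psmf1 is lowest in C435A control, at 5.32 to 5.54 FPKM, and C435A IFNα 3 is the lowest library for Psmg1, Psmd1, Psmc1, Psmc5, Psmd14 and Psmb5.

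Psmf1 with IFNα was at 7.26, 6.56 and 6.46 FPKM in wild-type IFNα and at 6.05, 6.30 and 5.82 FPKM in C435A IFNα. FPKM did not overlap, and every C435A library was lower, while the log2 fold change was −0.064 ± 0.107 (edgeR adjusted p = 0.848). The difference between lines in the response to IFNα, the interaction, was 0.45 ± 0.152 for Psmf1 (edgeR adjusted p = 0.916). Psmd1 had −0.47 ± 0.181, Psmc2 −0.39 ± 0.178 and Psmc1 −0.40 ± 0.204 (edgeR adjusted p = 0.916 for each), and without C435A IFNα 3 these were −0.37, −0.29 and −0.23. Of the 41 members 0 passed in the interaction by edgeR, DESeq2 or limma (0%, 0.0798% and 0% of all genes), with 1 higher and 2 lower at an unadjusted p under 0.05 (2.75% and 2.42% of all genes). The median was −0.15 over members and −0.019 over all genes, with 9 of 41 above 0 (47.7% of all genes), −0.081 over members without C435A IFNα 3 and −0.046 with a term for lung transcripts. Leaving out wild-type control 1 gave −0.28, and leaving out wild-type control 3 or wild-type IFNα 2 gave −0.053. So the lower values of the ATPases with IFNα in C435A were not shown to differ from the response of the wild type. All 41 intervals lay within 2-fold (53.4% of all genes) and 19 within 1.5-fold (18.8%). The comparisons share groups, as each group enters 2 of the comparisons between groups, and all 4 groups enter the interaction.

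The constitutive catalytic subunits were set against their inducible counterparts within each library, since the inducible subunit takes the same place in the ring. Psmb8 was at 0.0541% to 0.269% of the FPKM of Psmb5, Psmb9 at 0.989% to 2.01% of that of Psmb6, and Psmb10 at 21.6% to 43.3% of that of Psmb7. In each pair the constitutive gene was the higher one in all 12 libraries, with or without IFNα. The ratio Psmb10 to Psmb7 was 23.1%, 25.9% and 25.7% in C435A control and 32.1%, 32.4% and 43.3% with IFNα, and 28.6%, 21.6% and 23.8% in wild-type IFNα. It was higher in every C435A IFNα library than in these groups, by 0.52 and 0.54 on the log2 scale. In wild-type control it was 23.3%, 32.2% and 33.2%, which overlapped with C435A IFNα. Two-sided exact permutation tests of 3 libraries against 3, which cannot go below p = 0.1, gave p = 0.1 for both and an adjusted p of 0.3 over the 12 tests of the 3 pairs. The same p = 0.1 and adjusted p = 0.3 came from exact permutation tests of Psmb8 to Psmb5 for IFNα in C435A, which was lower without overlap (−0.75), and of Psmb9 to Psmb6 between the lines with IFNα, which was higher without overlap (0.61). In the wild type the 3 ratios overlapped between control and IFNα, at differences of −0.52, −0.18 and −0.25 (exact permutation p = 0.5, 0.4 and 0.3).

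**Figure D5:**
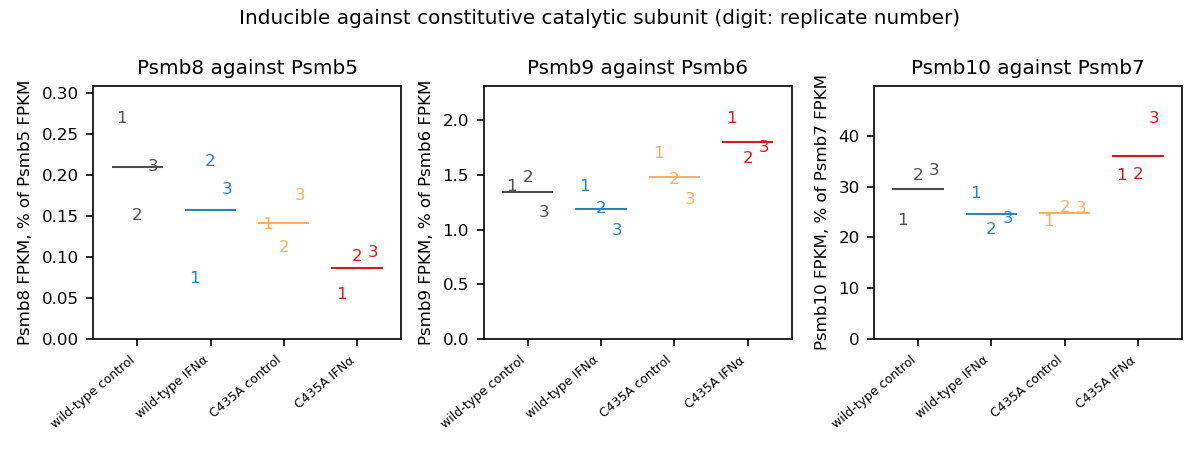
FPKM of each inducible catalytic subunit as a percent of its constitutive counterpart in each library (digit: replicate number; line: mean of 3; each axis starts at 0). Psmb10 against Psmb7 is at 32.1% to 43.3% in C435A IFNα and at 21.6% to 33.2% in the other groups.

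The inducible genes themselves gave 1 edgeR call over the 5 comparisons, for the lines with IFNα, where 0.597% of all genes were called. Psmb10, the inducible trypsin-like subunit, was higher in C435A than in wild type with IFNα, at 75.6, 75.7 and 77.0 FPKM against 60.6, 55.3 and 56.6 FPKM, a log2 fold change of 0.50 ± 0.0945 (edgeR adjusted p = 0.0308). Lung transcripts, present in all wild-type IFNα libraries and in C435A IFNα 3 alone of its group, differed along this comparison too. Psmb10 was at 77.0 FPKM in C435A IFNα 3, which has them, and at 75.6 and 75.7 FPKM in its replicates without them. In wild-type control it was at 60.2 FPKM in replicate 1, which has them, and at 69.6 and 68.4 FPKM in the others. No value with the term for lung transcripts is given for this gene, and their part in the difference was not tested. Psmb9, the inducible caspase-like subunit, had 0.75 ± 0.206 there (edgeR adjusted p = 0.123) at a mean of 4.60 FPKM over all libraries. Psme1, a subunit of the inducible activator, had −0.45 ± 0.115 with IFNα in the wild type (edgeR adjusted p = 0.441), and Psme2, its partner, −0.23 ± 0.171. Psmb8 was at 0.299 to 1.38 FPKM in all libraries. With IFNα, 0 of the 5 inducible genes were above 0 in the wild type (52.9% of all genes) and 2 of 5 in C435A (49.2%), at medians of −0.37 and −0.29.

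Other genes of the pathway passed in no comparison. Tested were 12 of 13 subunits and cofactors outside the symbol pattern, 8 of 8 transcriptional regulators and 14 of 14 genes that supply or deliver ubiquitin. EdgeR called 0 in each list and comparison. Of all genes it called 0.0227% and 0.00569% for IFNα in the wild type and in C435A. For the lines without and with IFNα it called 0.165% and 0.597%, and 0% in the interaction. At such shares, 0 calls in lists this short say little about these genes. Pomp, which matures the beta ring, was at 42.5 to 71.9 FPKM, the ubiquitin receptor Adrm1 at 40.5 to 63.3 FPKM and the small lid subunit Sem1 at 63.7 to 92.5 FPKM. In C435A with IFNα these had −0.32, −0.048 and −0.31 against C435A control. C435A IFNα 3 was the lowest of all 12 libraries for each of these genes. In C435A IFNα Pomp was at 57.7, 59.6 and 42.5 FPKM and Sem1 at 77.1, 83.5 and 63.7 FPKM. Every C435A control was higher, at 62.5 to 68.6 FPKM for Pomp and 89.6 to 92.5 FPKM for Sem1. No value without C435A IFNα 3 is given for these genes. Nfe2l1, a regulator of proteasome genes, was at 15.5, 16.3 and 16.3 FPKM in C435A control and at 19.5, 21.5 and 19.1 FPKM with IFNα. It was higher in every IFNα library, at 0.30 ± 0.115 (edgeR adjusted p = 0.427), while the member median of that comparison was −0.15. Nfyc, a subunit of the factor that binds CCAAT boxes, had 0.45 ± 0.136 there (edgeR adjusted p = 0.335). Vcp, the ATPase that extracts ubiquitin-tagged proteins and hands them on, was at 49.6, 52.7 and 68.7 FPKM in wild-type control and at 37.6, 43.8 and 36.2 FPKM in C435A control. It was lower in every C435A library, at −0.43 ± 0.115 (edgeR adjusted p = 0.205), and Ubqln2, a shuttle protein, had −0.77 ± 0.219 (edgeR adjusted p = 0.225).

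Promoters were read for the motif of interferon-activated factors, because IFNα was the treatment, and for those of Nfe2l1 and of the CCAAT factor. RefSeq sequence (GRCm38.p6), from 250 bases before to 50 after the start, was matched by symbol for 34 of 41 members. The interferon motif core, GAAA then any 2 bases then GAAA, searched on both strands, was in 4 of 34 members (11.8%), against 3.99% of 27025 promoters of all genes. The stretches around it in 3 members, 5′ to 3′ on the gene's strand with the match in capitals, are these.
Psmb3: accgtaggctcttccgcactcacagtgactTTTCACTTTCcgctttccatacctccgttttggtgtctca
Psmd4: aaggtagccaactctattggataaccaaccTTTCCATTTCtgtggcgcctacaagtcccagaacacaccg
Psmd9: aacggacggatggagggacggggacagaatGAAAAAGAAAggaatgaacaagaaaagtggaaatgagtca
They lie at chr11:97703241-97703310, chr3:95042655-95042724 and chr5:123228001-123228070. With IFNα these members had log2 fold changes of −0.086, −0.18 and −0.042 in the wild type and −0.21, −0.18 and 0.019 in C435A, none of which passed. The other member with the core was Psmg4, at −0.081 and −0.21. Without C435A IFNα 3 the C435A values of Psmb3 and Psmg4 were −0.067 and −0.13.

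The core of the antioxidant response element, TGACNNNGC, to which Nfe2l1 binds, was in 6 of 34 members (17.6%), against 14.0% of all promoters. In Psmb5, Psmb6 and Psmd9 it lay wholly within the 50 bases before the start, shown with the match in capitals.
Psmb5: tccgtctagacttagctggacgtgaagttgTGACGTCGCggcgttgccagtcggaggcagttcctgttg
Psmb6: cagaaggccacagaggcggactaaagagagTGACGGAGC
Psmd9: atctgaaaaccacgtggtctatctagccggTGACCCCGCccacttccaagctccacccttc
They lie at chr14:54618004-54618072, chr11:70525318-70525356 and chr5:123228129-123228189. CCAAT, on either strand, was in 12 of 34 members (35.3%), against 41.1% of all promoters. A match says only that these letters are in the window.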

How the data were processed

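RNA of 12 libraries, 3 in each of 4 groups taken from the sample labels, was measured. The libraries were poly(A)-selected and carried molecular identifiers, per the labels' protocols. Per the submitters' processing notes the tools included StringTie 1.3.4d, HISAT2 2.0.4, cutadapt 1.9 and UMI-tools, beside edgeR and DESeq2, with the build GRCm38. The sources do not say what each tool did, which annotation was used or whether strand was counted. The authors deposited a whole-number count and an FPKM per gene and library, per the file headers. Only the authors' FPKM, which carry a scaling for length and library size, were compared between genes. Gene positions are those of the deposited table and were not converted, and promoter positions are those of GRCm38.p6. The deposited gene starts differ from those of GRCm38, although the notes name that build. Psmb3, on the plus strand, is deposited at chr11:97594225-97604326, while its promoter stretch lies at chr11:97703241-97703310. Gene and promoter positions therefore cannot be laid side by side.

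Counts were tested with edgeR 4.0.16 in R 4.3.3: TMM scaling, the default low-count filter (17590 genes, all 41 members), the quasi-likelihood test with 4 group means in 1 fit and 5 comparisons, two-sided, with Benjamini-Hochberg adjustment over all genes tested and a threshold of 0.05. The common biological coefficient of variation was 28.9%. Alternatives were DESeq2 1.42.0, limma 3.58.1 on log2(FPKM + 1), other scalings, filters and pseudocounts, a replicate block, a term for lung transcripts, removal of length trends, single libraries left out and, chosen after seeing the data, counts of near-identical copies added. Transcripts were compared with blastn 2.17.0. The code was tested on simulated counts. Members and lists were chosen with earlier results of these data known.

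Values in every library were given for the catalytic subunits, Psmd14, Psmd2, Psmd4, the activators, Psmf1 and the 4 members with the smallest p in each comparison, and levels for the highest and lowest member of each part. Of the other pathway genes, those passing and in each comparison the 2 with the smallest p were eligible, with Nfe2l1, Pomp, Adrm1, Sem1 and the inducible subunits. Psmc6, Psmg3, Psmg4, Psmd11 and Psmc4 were named after their values were seen. With 3 libraries per group the spread between libraries limits the precision.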

Additional observations from a re-analysis of the deposited data

How the results depend on the processing

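The count of members passing stayed at 0 in every comparison and setting, with these exceptions: 1 (Psmf1) without IFNα with DESeq2 and in the fit without wild-type control 1, so 0 to 1 over the 12 fits that each left out a library, and 1 (Psmd1) for the lines with IFNα with DESeq2. The member median of the interaction was −0.28 without wild-type control 1, and −0.28 to −0.053 over those fits. The medians near 0 changed sign with the setting. The median for IFNα in the wild type ran from −0.064 to 0.099 over those fits and was −0.0094 with DESeq2. For the lines with IFNα it ran from −0.057 to 0.046, and for the lines without IFNα from 0.036 to 0.17, and it was −0.011 there with library totals as scaling. On log2(FPKM + 0.1) the median of all genes moved from 0.0049 to −0.11 in that last comparison. The median member level in wild-type control was 77.7 FPKM and 155.6 CPM per kb of transcript, a unit with another scale. With a replicate block the medians were 0.0026, −0.15, 0.086, −0.035 and −0.15, with 0 members passing. Whether libraries with the same replicate number were handled together is not known. Same-numbered libraries had correlations of deviations from −0.063 to 0.052, which with 3 libraries per group cannot decide it. Library totals do not limit these genes, whose lowest count was 522. Over all genes DESeq2 called 65, 145, 240, 599 and 14, against 4, 1, 29, 105 and 0 by edgeR, for IFNα in the wild type, IFNα in C435A, the lines without and with IFNα, and the interaction.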

Other observations

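Psme2b, a protein-coding copy of Psme2 with 99.4% identity over 794 bases, was listed at 37.5 to 78.3 FPKM, against 82.2 to 156 FPKM for Psme2, and the lowest value of each was in C435A IFNα 3. The near-identical copies of Psmb3 and Psma3 also had their extreme values there: AC114990.1 was at 59.6 to 94.6 FPKM in the other 11 libraries and at 166 FPKM in C435A IFNα 3, and Gm13835 was at 109 to 165 FPKM in the others and at 95.0 FPKM there.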
